A study of Mus musculus with 6 samples.

Results

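The genes described here encode titin and the proteins that anchor, cross-link, cap and assemble the sarcomere, the contractile unit of heart muscle. They comprise 37 of the 52550 mouse genes in the count files and were listed by name, with earlier results of these data known. The list holds titin, 3 genes of the M-band, 15 of the Z-disc and 5 of intermediate filaments and costameres. It also holds 6 genes of thin filament capping and length, and 7 assembly factors and chaperones. Hearts of mice at postnatal day 7 were compared between a group labelled ctrl, here called control, and a group labelled GR-cKO, whose cardiomyocytes carry a deletion of Nr3c1, the gene of the glucocorticoid receptor, with 3 libraries each. The sources used here do not give the Cre driver, the deleted exon or the genotype of the control mice. Hearts were homogenised, so every library also holds RNA of fibroblasts, vessels and blood cells, which the deletion does not target. Libraries read the 3′ end of polyadenylated transcripts, 1 read per captured fragment whatever the length of the transcript, so levels were not divided by length.

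A sarcomere runs from one Z-disc to the next. Thin filaments of actin are anchored in the Z-disc by alpha-actinin, and thick filaments of myosin are linked at the centre of the sarcomere by myomesins, which form the M-band. Titin spans from the Z-disc to the M-band and acts as a molecular spring, desmin filaments tie neighbouring Z-discs to each other and to the membrane, and capping proteins set where thin filaments end. Newborn mouse cardiomyocytes add and align sarcomeres as they mature, and glucocorticoids are known to promote this maturation around birth. The comparison addresses how this set of genes differs when cardiomyocytes lack the receptor.

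Nr3c1 was at 115 ± 15.8 CPM (reads per 1000000 reads of tested genes, scaled between libraries) in controls and 54.3 ± 4.47 CPM in the GR-cKO group (n = 3 each, SD), with all GR-cKO libraries below all controls. It was the only gene of 14860 tested, or 0.00673%, with an edgeR adjusted p under 0.05. Libraries held 18135540 to 22999192 reads, and the 37 genes took 325555 to 397265 reads, or 1.70 to 1.94% of mouse reads. Cardiomyocyte markers were abundant in every library: 12 listed genes, Myh6, Tnnt2 and Ryr2 among them, summed to 84720 to 98757 CPM in controls and 92215 to 114370 CPM in GR-cKO hearts. GR-cKO replicate 3 stood apart in composition: the noncoding RNA Gm42418 (chosen after its values were seen) made up 10.9% of its mouse reads and 5.47 to 7.69% in the other 5 libraries. Control replicate 2 differed in other markers, also chosen after they were seen. Its 6 listed atrial genes, Myl7 among them, summed to 4382 CPM, the most of any library. GR-cKO replicate 2 followed with 3766 CPM, and GR-cKO replicate 1 had the least, 2407 CPM. The brown fat genes Ucp1 and Adipoq also peaked in control replicate 2 (89.3 and 13.2 CPM), with GR-cKO replicate 2 next (18.8 and 4.43 CPM). Cidea, another brown fat gene, was highest in GR-cKO replicate 3.

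All 37 genes had enough reads to be tested, and none passed the threshold in either direction in edgeR, DESeq2 or limma voom. At an unadjusted p under 0.05 in the edgeR test, 1 of 37 was higher, Hspb7, and 1 lower, Pdlim5, where 2.07% of all tested genes were higher and 2.13% lower. Without GR-cKO replicate 3 these counts were 2 and 4, with Trim55, Trim54, Myoz2 and Lmod2 also under 0.05. Without control replicate 2 or GR-cKO replicate 1, Pdlim5 alone was under 0.05. The log2 fold change of GR-cKO over control was positive for 20 and negative for 17 genes, with a median of 0.01, and ran from -0.39 to 0.38. Over all tested genes the median was also 0.01. The split of signs was 15 positive and 22 negative when libraries were scaled by their totals alone, and 21 and 16 with spike-in scaling. The 95% interval of the fold change lay within a 1.5-fold change in either direction for 28 of the 37 genes (75.7%) and within a 2-fold change for 33 (89.2%), where the shares over all tested genes were 47.8% and 72.2%. The 4 genes whose interval reached beyond 2-fold were Myoz1, Myot, Neb and Lmod2.

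**Figure D1:**
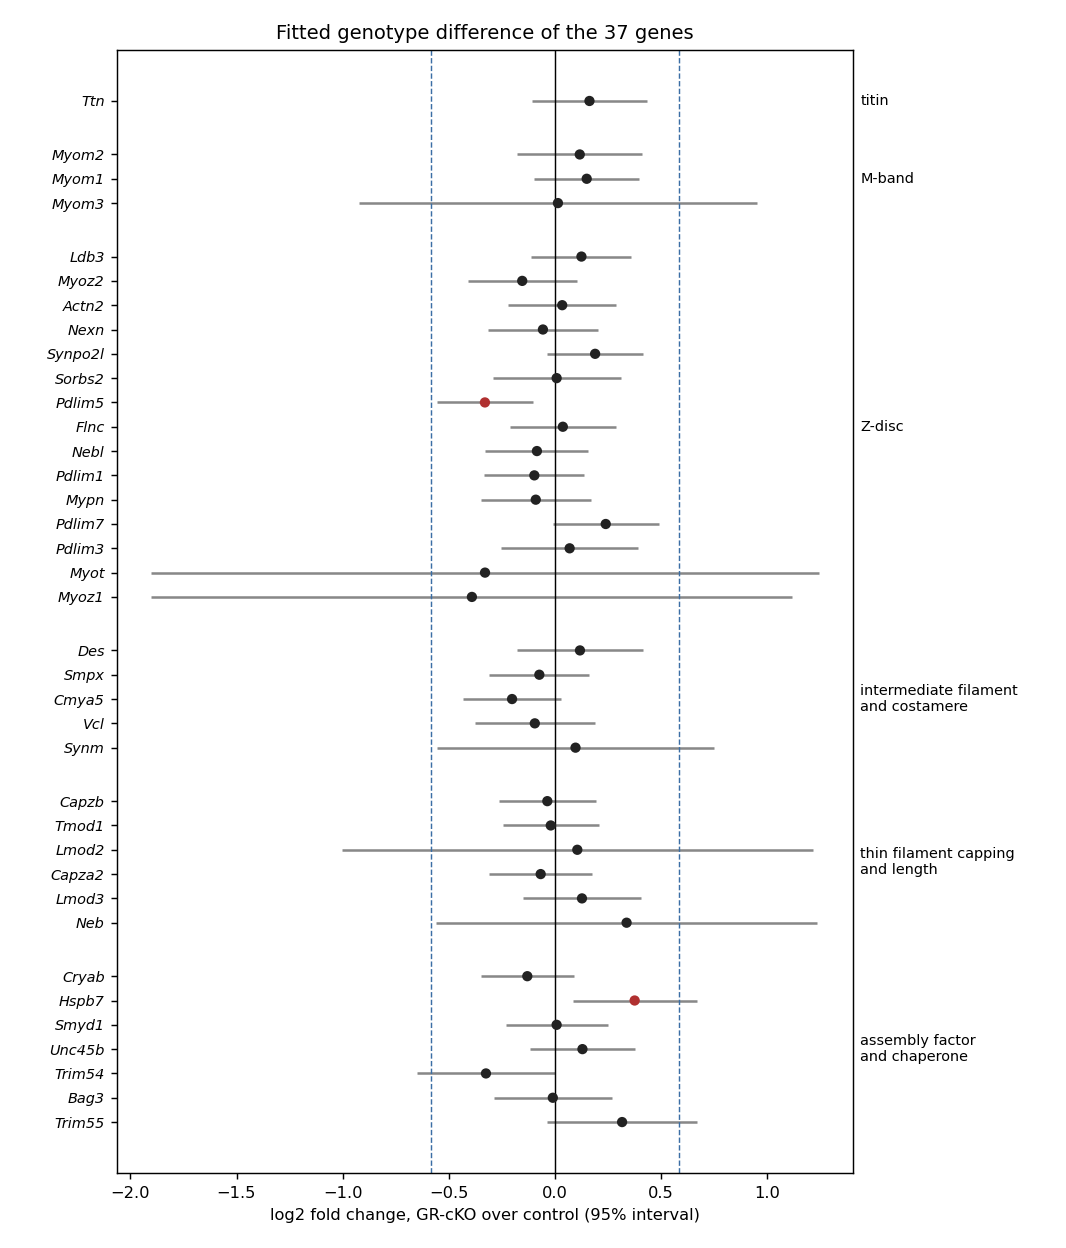
Log2 fold change of GR-cKO over control for each of the 37 genes (points) with its 95% interval (bars), grouped by role and ordered by control level; dashed lines mark a 1.5-fold change in either direction and red points an unadjusted p under 0.05. Hspb7 and Pdlim5 are the only red points, and the longest bars belong to Myot, Myoz1, Lmod2, Myom3 and Neb.

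Many of these genes, though not all, are among the most abundant transcripts of the neonatal heart. Of the 37 genes, 10 lay above the 99th percentile of mean CPM of all tested genes and 23 above the 90th. In control hearts Ttn stood alone at the top with 3873 ± 575 CPM (SD, n = 3). Next came a run from Ldb3 at 1434 ± 154 CPM through Myom2, Cryab, Myom1, Myoz2, Des, Smpx, Actn2 and Nexn to Hspb7 at 690 ± 151 CPM, in which the libraries of each gene overlapped those of the next. Capzb followed at 442 ± 29.7 CPM, clear of Hspb7. At the bottom were Synm at 4.36 ± 0.664 CPM and, lower still, Myom3, Neb, Myot and Myoz1.

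**Figure D2:**
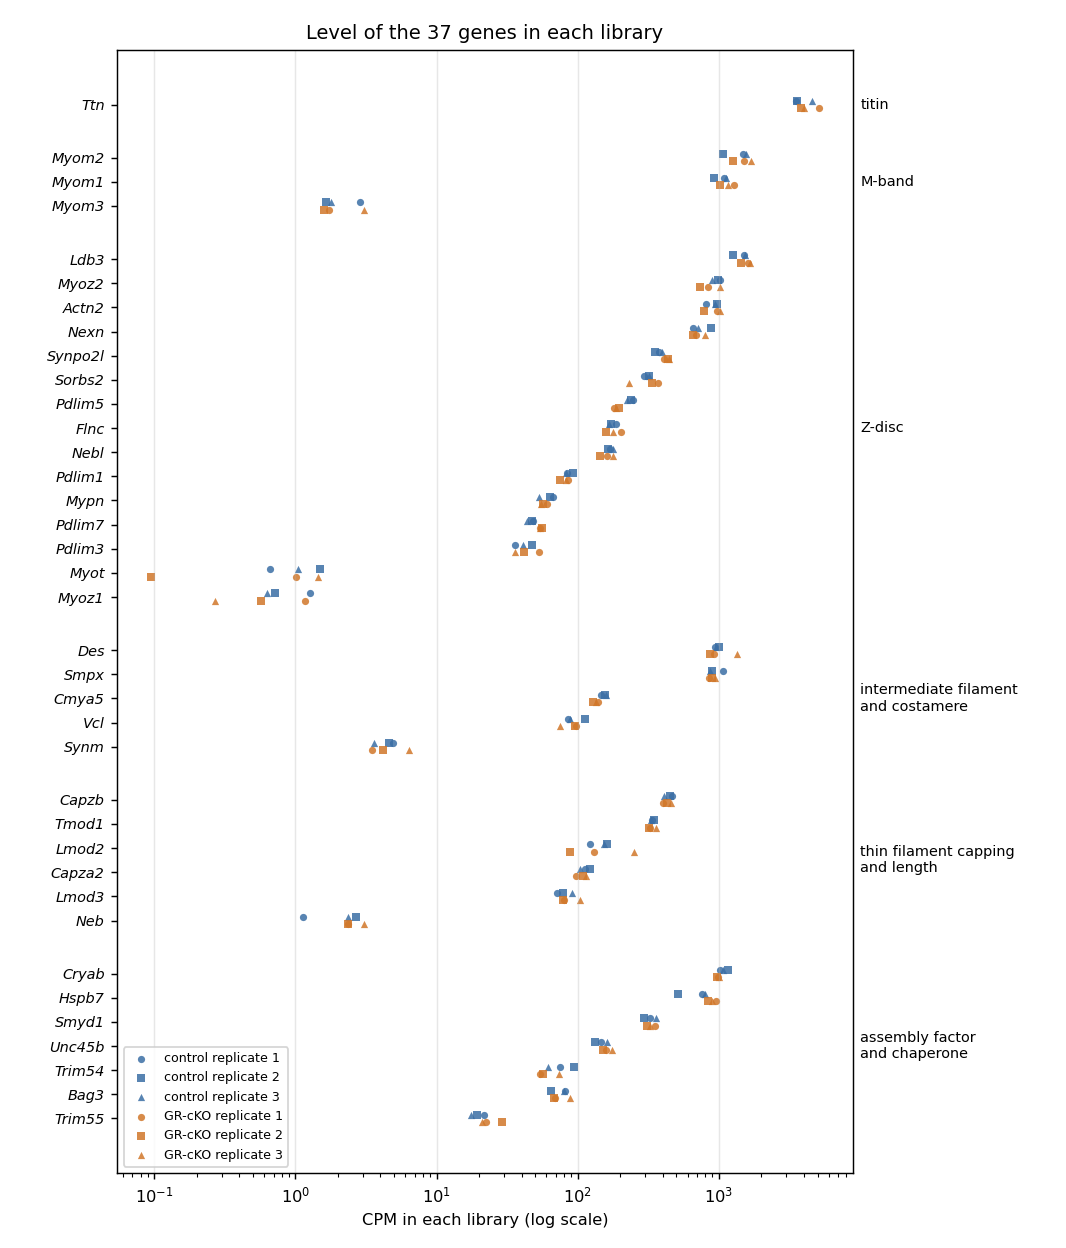
CPM of each gene in each of the 6 libraries on a log axis, grouped by role, with control in blue, GR-cKO in orange and the symbol giving the replicate number. Ttn lies at 3531 to 5145 CPM, and Myom3, Neb, Myot, Myoz1 and Synm lie apart at the low end.

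Those last 4 are best known from skeletal muscle. Myom3 is a myomesin of skeletal muscle, Neb encodes nebulin, the giant ruler protein of skeletal thin filaments, Myot encodes myotilin, and Myoz1 encodes calsarcin of fast skeletal fibres. They had 2 to 66 reads per library. Skeletal muscle markers were low beside cardiac ones, with 20 listed genes summing to 47.7 to 58.6 CPM in controls and 47.1 to 58.1 CPM in GR-cKO hearts. Myod1 had no read in any library and Myh1, Myh2, Myh4 and Actn3, which define adult fast fibres, had 0 to 13. In GR-cKO replicate 3 Tnnc2 had 47 reads and Tnnt3 had 35, against 0 to 13 and 3 to 18 in the other libraries. By CPM, Myh1, Mylpf and Ryr1 were also highest in that library, while Myh3, Myl1, Mybpc2 and Cacna1s were lowest there. Most reads of the list came from Myl1 (132 to 394 per library), Tnni2 (136 to 277), Mybpc2 (165 to 286) and Casq1 (125 to 260), and neonatal myosin Myh8 had 27 to 83. For each read of the cardiac calsarcin gene Myoz2 there were 0.000264 to 0.00140 reads of Myoz1.

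Promoter sequences are shown for 4 members to set the comparison beside the DNA that precedes these genes. Ttn is the most abundant member, Pdlim5 had the smallest p, Ldb3 is the most abundant relative of Pdlim5, and Trim54 had the next smallest p among genes below control. RefSeq (GRCm38.p6) gave a start for 29 of the 37 genes. The 250 bases before each start were searched on both strands for the full glucocorticoid response element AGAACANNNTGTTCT, its half-site AGAACA, the M-CAT element CATTCC bound by TEAD factors, the CArG box bound by serum response factor and the MEF2 site. Capitals mark matches, each sequence ends at the base before the start, and positions below count back from it. The 4 windows are chr2:76982548-76982797 (minus strand), chr14:34588682-34588931 (minus), chr3:142395697-142395946 (minus) and chr5:31116362-31116611 (plus).
Ttn: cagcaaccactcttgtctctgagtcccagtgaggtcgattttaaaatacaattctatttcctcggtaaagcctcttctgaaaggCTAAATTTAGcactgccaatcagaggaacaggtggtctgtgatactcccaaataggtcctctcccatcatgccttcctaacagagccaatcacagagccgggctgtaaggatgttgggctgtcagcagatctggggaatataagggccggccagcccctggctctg
Ldb3: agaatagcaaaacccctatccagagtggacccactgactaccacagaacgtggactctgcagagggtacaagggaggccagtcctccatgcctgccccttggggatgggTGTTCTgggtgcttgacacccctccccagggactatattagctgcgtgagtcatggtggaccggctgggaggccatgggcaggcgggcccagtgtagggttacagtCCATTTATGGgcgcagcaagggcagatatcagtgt
Pdlim5: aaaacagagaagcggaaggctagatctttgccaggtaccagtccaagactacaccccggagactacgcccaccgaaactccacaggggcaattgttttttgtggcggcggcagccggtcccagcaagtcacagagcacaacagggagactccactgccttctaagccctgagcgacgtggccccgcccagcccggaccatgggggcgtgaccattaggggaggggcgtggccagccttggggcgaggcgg
Trim54: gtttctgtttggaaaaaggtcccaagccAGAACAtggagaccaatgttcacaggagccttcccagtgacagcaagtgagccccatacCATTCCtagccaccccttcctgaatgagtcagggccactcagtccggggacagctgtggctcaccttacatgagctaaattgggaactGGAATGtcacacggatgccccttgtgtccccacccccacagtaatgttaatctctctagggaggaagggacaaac

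Ttn held a MEF2 site at -166 to -157. Ldb3 held a half-site at -141 to -136 and a CArG box at -35 to -26. Trim54 held a half-site at -222 to -217 and M-CAT elements at -163 to -158 and -75 to -70. No searched motif matched in the Pdlim5 window. The full response element matched in 0 of the 29 genes and in 0.0111% of the 27025 genes with a RefSeq start. Half-sites matched in 7 of 29 (24.1%, against 18.2% of all genes), M-CAT elements in 7 (24.1%, against 14.4%), CArG boxes in 4 (13.8%, against 1.62%) and MEF2 sites in 4 (13.8%, against 3.42%). Some genes have several starts, and a gene was counted when any of its windows matched, so such genes had more chances. Ldb3 and Pdlim5 have 2 windows each, of which 1 is shown. The full response element contains the half-site on both strands, so a match to it would also count there. A match is a string of letters and not a measured binding site.

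Titin, encoded by Ttn on chromosome 2 (76703980 to 76982547, minus strand, GRCm38), had 3531, 3551 and 4538 CPM in control replicates 1, 2 and 3 and 5145, 3826 and 4032 CPM in GR-cKO replicates 1, 2 and 3. The highest value was that of GR-cKO replicate 1, and control replicate 3 lay above the other GR-cKO libraries, so the groups overlapped. For titin the log2 fold change came to 0.16 with an SE of 0.128 (95% interval from -0.11 to 0.43, edgeR adjusted p = 0.998). It was 0.02 without GR-cKO replicate 1 and was 0.29 without control replicate 3.

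The M-band genes had positive fold changes in all 3 cases, though the sign of Myom3 was negative by library totals (-0.046), by spike-in scaling (-0.0059) and in limma voom (-0.035). Myom1 encodes the myomesin found in all striated muscle, and Myom2 encodes the M-protein of mature and fast fibres. Myom1 was at 1089, 915 and 1124 CPM in controls and 1287, 1014 and 1168 CPM in GR-cKO replicates 1, 2 and 3, a log2 fold change of 0.15 (SE 0.118). Myom2 was at 1473, 1065 and 1554 CPM in controls and 1507, 1252 and 1677 CPM in GR-cKO hearts, a log2 fold change of 0.12 (SE 0.140), and it turned negative (-0.03) without control replicate 2. Control replicate 2 was the lowest library for both genes, and the groups overlapped. Myom1 shares 207 exonic bases with Myl12a on the opposite strand, so part of its count is uncertain if strand was not used. The log2 ratio of Myom2 to Myom1 reads was 0.44, 0.22 and 0.47 in controls and 0.23, 0.30 and 0.52 in GR-cKO hearts, a difference of -0.02 between the group means (exact permutation p = 1, 2-sided as for all ratios).

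The Z-disc genes split almost evenly, with 7 of 15 fold changes positive and 8 negative and a median of -0.06. The scaffold of the disc showed no separation. Actn2, alpha-actinin of cardiac muscle, was at 805, 974 and 931 CPM in controls and 969, 780.5 and 1024 CPM in GR-cKO replicates 1, 2 and 3, a log2 fold change of 0.03 (95% interval -0.22 to 0.29). Its sign was negative by library totals (-0.011). Ldb3, which encodes the PDZ-LIM protein Cypher that binds alpha-actinin, was at 1515, 1256 and 1532 CPM in controls and 1601, 1431 and 1659 CPM in GR-cKO hearts, a log2 fold change of 0.12 (SE 0.112). Myoz2, cardiac calsarcin, was at 1018, 979 and 889 CPM in controls and 839, 737 and 1017 CPM in GR-cKO hearts, a log2 fold change of -0.15 (SE 0.122). In all 3 genes the highest GR-cKO library was replicate 3 and the lowest replicate 2 on these scaled CPM.

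The PDZ-LIM family held the 2 smallest p-values among the Z-disc genes. Pdlim5 encodes ENH, which tethers signalling enzymes and cytoskeletal proteins at the Z-disc, and lies on chromosome 3 from 142239590 to 142395696 on the minus strand. It was at 246, 237 and 225 CPM in control replicates 1, 2 and 3 and at 181, 194 and 187 CPM in GR-cKO replicates 1, 2 and 3. Every GR-cKO library lay below every control library, and both groups were tight. Its log2 fold change came to -0.33 with an SE of 0.108 (95% interval from -0.56 to -0.10, edgeR unadjusted p = 0.00683, edgeR adjusted p = 0.998). It ran from -0.36 to -0.30 with each library left out in turn, and adjusted p-values over the alternatives ran from 0.838 to 1. With spike-in scaling it was -0.29, with an unadjusted edgeR p of 0.114.

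Pdlim7, which encodes Enigma, a protein of the same PDZ-LIM family, lay the other way. It was at 48.1, 47.6 and 43.6 CPM in controls and 54.3, 56.0 and 54.2 CPM in GR-cKO replicates 1, 2 and 3, with every GR-cKO library above every control (log2 fold change 0.24, SE 0.119, edgeR adjusted p = 0.998). Pdlim1 and Pdlim3 had log2 fold changes of -0.10 and 0.07 with overlapping groups. Reads of Pdlim5 for each read of Ldb3 numbered 0.162, 0.189 and 0.147 in control and 0.113, 0.136 and 0.113 in GR-cKO hearts. This ratio does not depend on how libraries are scaled, and it was lower in every GR-cKO library. Its log2 difference was -0.46 (exact permutation p = 0.1, the smallest that 3 against 3 can give, adjusted to 0.6 over the 6 ratios tested).

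Synpo2l, which encodes an actin-binding Z-disc protein, was the third Z-disc gene without overlap on scaled CPM. It was at 374, 351 and 397 CPM in controls and 406, 432 and 441 CPM in GR-cKO replicates 1, 2 and 3 (log2 fold change 0.19, SE 0.108). The remaining Z-disc genes overlapped between groups. Nebl (nebulette, the cardiac relative of nebulin), Nexn (nexilin, an actin-binding protein), Mypn (myopalladin) and Flnc (filamin C, an actin cross-linker) had log2 fold changes between -0.09 and 0.04. Sorbs2, an adaptor of the Z-disc and cell contacts, was at 0.01 on this scale, but GR-cKO replicate 3 was its lowest library at 231 CPM and GR-cKO replicate 1 its highest at 373 CPM. Without GR-cKO replicate 3 its log2 fold change was 0.18.

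Genes that tie Z-discs to each other and to the membrane gave 2 positive and 3 negative fold changes with a median of -0.07. Des, desmin, was at 943, 994 and 948 CPM in controls and 928, 857 and 1345 CPM in GR-cKO replicates 1, 2 and 3. Only GR-cKO replicate 3 exceeded the controls, and the log2 fold change of 0.12 (SE 0.140) became -0.11 without that library. Smpx, a small X-linked protein of the costamere, was at 1066, 891 and 859 CPM in controls and 847, 887 and 943 CPM in GR-cKO hearts, a log2 fold change of -0.07 (95% interval -0.31 to 0.16). Cmya5, which encodes myospryn, a partner of desmin and alpha-actinin, was at 145, 157 and 160 CPM in controls and 138, 129 and 134 CPM in GR-cKO hearts. All 3 of its GR-cKO libraries lay below the controls (log2 fold change -0.20, SE 0.11, edgeR adjusted p = 0.998). Vcl, vinculin, and Synm, synemin, had log2 fold changes of -0.10 and 0.10 with overlapping groups. The exons of Vcl share 2090 bases with Ap3m1 and those of Cmya5 share 2451 bases with A630019I02Rik, in both cases on the opposite strand.

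The genes of thin filament ends included both the steadiest member and the most variable one above 10 CPM. Tmod1, tropomodulin, which caps the pointed end, was at 338, 349 and 330 CPM in controls and 325, 319 and 359 CPM in GR-cKO replicates 1, 2 and 3. Its highest library was 1.13 times its lowest, and the log2 fold change was -0.02 (95% interval -0.25 to 0.21), though by spike-in scaling it was 0.0112. Capzb, the beta subunit of the protein that caps the barbed end in the Z-disc, was at 463, 454 and 408 CPM in controls and 405, 430 and 457 CPM in GR-cKO hearts, a log2 fold change of -0.04 (0.0007 by spike-in scaling). The alpha subunit gene Capza2 had 0.243, 0.267 and 0.253 reads for each read of Capzb in control and 0.242, 0.255 and 0.249 in GR-cKO hearts (log2 difference -0.03, exact permutation p = 0.6).

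Lmod2, leiomodin of the heart, which opposes tropomodulin and lengthens thin filaments, differed more between GR-cKO hearts than between groups, and its values in each library are given because they were seen to vary. It had 122, 160 and 154 CPM in control replicates 1, 2 and 3 and 130.5, 88.0 and 250.4 CPM in GR-cKO replicates 1, 2 and 3. The last of these was 2.85 times the lowest, the widest range of any member above 10 CPM. For Lmod2 the log2 fold change was 0.10 (SE 0.425), with -0.41 when GR-cKO replicate 3 was left out and 0.39 when GR-cKO replicate 2 was left out. In limma voom (-0.024) and with the replicate number as a block (-0.016) the sign was negative. Reads of Lmod2 for each read of Tmod1 ran from 0.361 to 0.467 in control and were 0.402, 0.276 and 0.698 in GR-cKO replicates 1, 2 and 3 (exact permutation p = 1). Lmod3, a leiomodin of striated muscle, had a log2 fold change of 0.13 (SE 0.133).

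Among assembly factors and chaperones, Hspb7 had the smallest p. It encodes a small heat shock protein of heart muscle that binds filamin C, and lies on chromosome 4 from 141420779 to 141425311 on the plus strand. It was at 759, 517 and 795 CPM in control replicates 1, 2 and 3 and at 957, 837 and 891 CPM in GR-cKO replicates 1, 2 and 3. All GR-cKO libraries lay above all controls, and control replicate 2 was the lowest. Its log2 fold change came to 0.38 with an SE of 0.139 (95% interval from 0.08 to 0.67, unadjusted p = 0.0147, edgeR adjusted p = 0.998). Without control replicate 2 it was 0.20, with an unadjusted edgeR p of 0.0949, and adjusted p-values over the alternatives ran from 0.472 to 1.

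Cryab, alpha B-crystallin, a chaperone that protects desmin and titin, was at 1017, 1162 and 1064 CPM in controls and 983, 972 and 1007 CPM in GR-cKO replicates 1, 2 and 3. Its groups did not overlap, although the lowest control and the highest GR-cKO value lay close together (log2 fold change -0.13, SE 0.104). Unc45b, the chaperone that folds the myosin head, and Smyd1, a methyltransferase required for sarcomere assembly, had log2 fold changes of 0.13 and 0.01, the latter -0.029 by library totals. Bag3, a co-chaperone that clears damaged filamin, had one of -0.01.

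The ubiquitin ligases Trim54 and Trim55, relatives that bind titin and microtubules, had fold changes of opposite sign. Trim54 was at 75.0, 94.3 and 61.3 CPM in controls and 53.9, 56.7 and 73.4 CPM in GR-cKO hearts, a log2 fold change of -0.33 (SE 0.155). Trim55 was at 21.6, 19.3 and 17.5 CPM in controls and 22.4, 29.2 and 21.1 CPM in GR-cKO hearts, a log2 fold change of 0.32 (SE 0.169). Groups overlapped for both, by a single GR-cKO library in each case, replicate 3. Reads of Trim54 for each read of Trim55 numbered 3.46, 4.88 and 3.51 in control and 2.41, 1.94 and 3.48 in GR-cKO hearts (log2 difference -0.62, exact permutation p = 0.2, adjusted to 0.6). Trim54 had its lowest fold change, -0.47, without GR-cKO replicate 3 and its highest, -0.15, without control replicate 2.

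**Figure D3:**
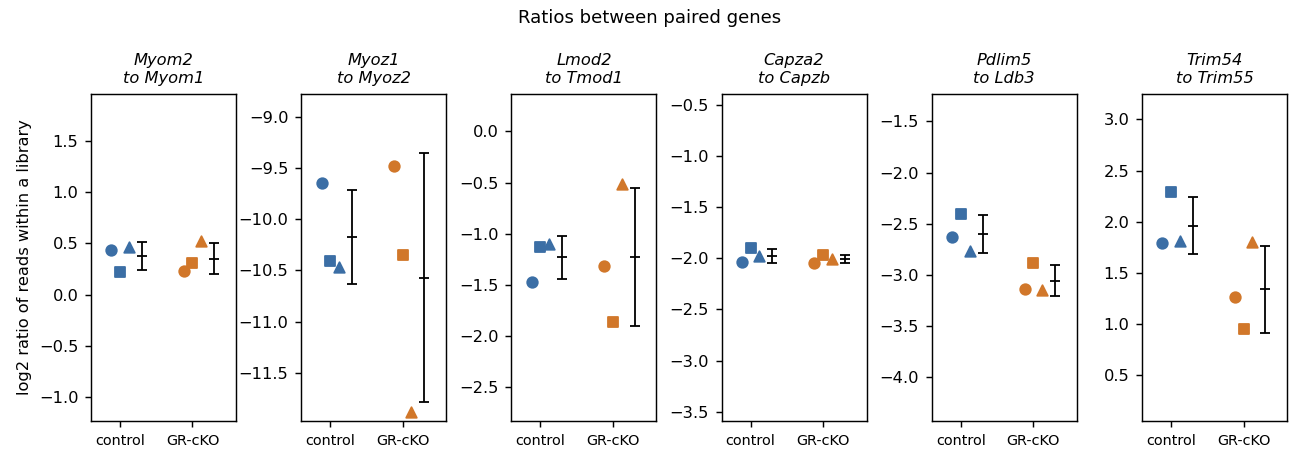
Log2 ratio of the reads of 2 genes within each library for the 6 ratios tested, with control in blue, GR-cKO in orange, the symbol giving the replicate number and black bars the mean ± SD (n = 3); every panel spans the same height. Pdlim5 to Ldb3 is the only ratio whose groups do not overlap, and the GR-cKO libraries spread most for Myoz1 to Myoz2, which rests on 5 to 29 reads of Myoz1, and for Lmod2 to Tmod1.

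Across the whole set on scaled CPM, 3 genes (Hspb7, Pdlim7 and Synpo2l) had all GR-cKO libraries above all controls. On the same scale 3 (Pdlim5, Cmya5 and Cryab) had all of them below. Over all tested genes 4.7% lay entirely above and 5.27% entirely below. The medians by role were 0.12 for the M-band, -0.06 for the Z-disc, -0.07 for intermediate filaments and costameres, 0.04 for thin filament capping and length and 0.01 for assembly factors and chaperones, beside 0.01 for all tested genes. The Z-disc median was 0.03 and the M-band median -0.03 without control replicate 2. The capping median was negative by library totals (-0.02), in limma voom (-0.02), with the replicate block (-0.02), without GR-cKO replicate 3 (-0.08) and without control replicate 1 (-0.0057).

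On scaled CPM the GR-cKO libraries differed among themselves across the set, and this depends on the scaling. The scaling factors (TMM) were 1.0058, 1.0564 and 0.9042 in GR-cKO replicates 1, 2 and 3, and 1.011 to 1.0151 in controls. Without them the 37 genes together took 1.94, 1.75 and 1.73% of mouse reads in GR-cKO replicates 1, 2 and 3. By that share, replicate 3 was not above replicate 2. GR-cKO replicate 3 was the highest of the 6 libraries for 13 of the 37 genes (35.1%) and GR-cKO replicate 2 the lowest for 12 (32.4%), where the same libraries were highest for 23% and lowest for 16.4% of all tested genes. Relative to the control mean, 26 of 37 genes were higher in GR-cKO replicate 3, 17 in replicate 1 and 9 in replicate 2, that is 70.3, 45.9 and 24.3%, where 48.2 to 49.3% of all tested genes were higher in these libraries. On scaled CPM all 6 capping and length genes exceeded the control mean in GR-cKO replicate 3 and only 1 in each of the other GR-cKO hearts. This depends on the scaling. Set against cardiomyocyte marker reads, the measure described below, Tmod1, Capza2 and Capzb lay below the control mean in GR-cKO replicate 3. Lmod2, Lmod3 and Neb lay above it. Summed cardiomyocyte markers varied in the same order, with 105750, 92215 and 114370 CPM in GR-cKO replicates 1, 2 and 3. They were lowest in control replicate 2 at 84720 CPM. The same scaling factors enter these sums and the members' CPM, so the shared order depends on them. A large part of this sum was a single gene, Myl3, at 24054 CPM in control replicate 2 and 31166 to 37428 CPM in the other libraries. The part of this spread, of the Gm42418 share and of the atrial and brown fat markers in the members' values was not tested. In bulk tissue, fewer cardiomyocytes and less RNA of these genes per cardiomyocyte cannot be told apart.

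**Figure D4:**
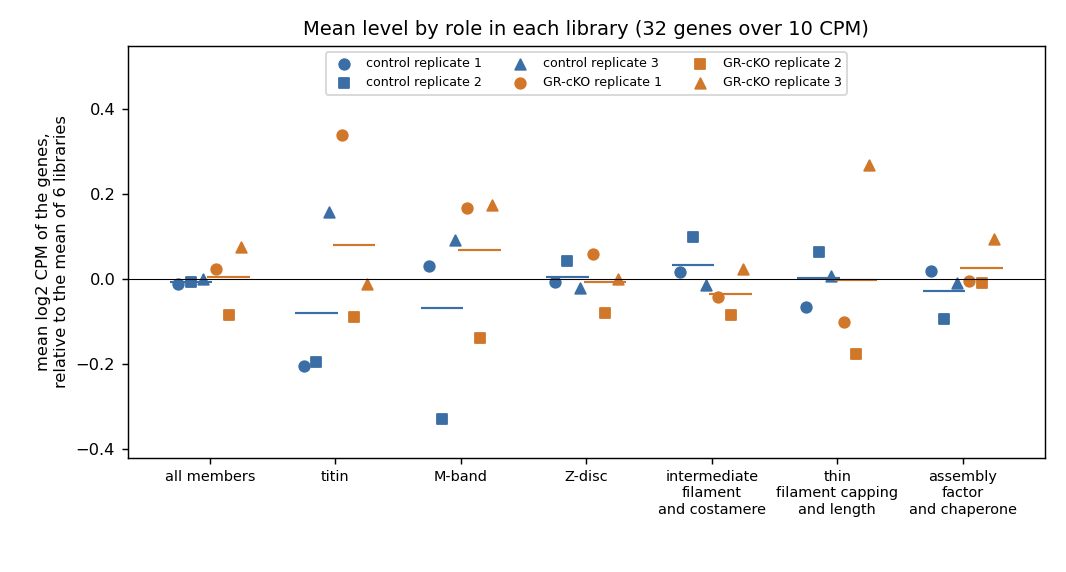
Mean log2 CPM of the genes of each role in each library, as the deviation from the average over 6 libraries, for the 32 genes above 10 CPM, with control in blue, GR-cKO in orange, the symbol giving the replicate number and lines the group means. GR-cKO replicate 3 is highest and GR-cKO replicate 2 lowest over all 32 genes, at 0.08 and -0.08, and control replicate 2 is lowest for the M-band at -0.33. The order over all 32 genes depends on the scaling between libraries.

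Set against the summed reads of the 12 cardiomyocyte markers, a measure added after the data were seen, Pdlim5, Cmya5, Myoz2, Nebl and Pdlim1 lay lower in every GR-cKO library than in any control, and no member lay higher in every one. On this scale 9.25% of all tested genes lay entirely below and 1.34% entirely above, and the marker sum itself was 93918 ± 7969 CPM in controls and 104110 ± 11170 CPM in the GR-cKO group (SD, n = 3 each). Pdlim5 had 24.9, 28.0 and 22.9 reads per 10000 marker reads in control and 17.2, 21.1 and 16.4 in GR-cKO replicates 1, 2 and 3. Cmya5 had 14.7, 18.5 and 16.3 against 13.1, 14.0 and 11.7, and Myoz2 103 ± 12.5 against 82.7 ± 5.37 (SD, n = 3 each). Hspb7 overlapped, with 76.9, 61.0 and 80.9 against 90.5, 90.8 and 77.9, and Ttn was at 413 ± 52.4 and 418 ± 67.1 (SD, n = 3 each).

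Of 76 related genes of the sarcomere, its adhesions and its chaperones that are not members, 73 were tested and none passed, with 48 positive and 25 negative fold changes and a median of 0.04. Ankrd23, a titin-binding ankyrin repeat protein, had the smallest p of these, with 9 to 26 reads in control and 22 to 50 reads in GR-cKO libraries (log2 fold change 1.27, SE 0.582, edgeR adjusted p = 0.998). Nbr1, an autophagy receptor that binds the titin kinase region, was at 57.4 ± 2.39 CPM in controls and 47.9 ± 5.43 CPM in GR-cKO hearts, and Srf, the serum response factor that drives sarcomere genes, at 204 ± 30.8 and 269 ± 79.6 CPM (SD, n = 3 each).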

How the data were processed

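Hearts of 3 control and 3 GR-cKO mice at postnatal day 7 were measured by 3′ mRNA sequencing (QuantSeq FWD, per the labels' protocols). The deposited files hold raw read counts per Ensembl gene, 1 library per file. The submitters' processing notes name STAR 2.5.4a, featureCounts 1.6.2, DESeq2 1.18.1, cutadapt 1.16 and the build GRCm38. Strand setting and annotation release are not stated in the sources used here. If strand was not used, 12 members with an exon overlapping a gene on the opposite strand have uncertain counts. On the same strand, Nexn shares 287 exonic bases with Gm43185 and Pdlim7 shares 68 with Mir6945. Reads there are ambiguous under either strand setting. Symbols and coordinates came from GENCODE M21.

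Spike-in rows (92 ERCC, 7 SIRV) were left out. edgeR 4.0.16 in R 4.3.3 filtered genes (filterByExpr), scaled by TMM and tested genotype with the quasi-likelihood F test, Benjamini-Hochberg adjusted over 14860 genes. CPM are relative to TMM-scaled reads of tested genes, and log2 CPM used a prior count of 2. The fit was tested on simulated counts. The labels call the libraries biological replicates, and no 2 agreed within sampling noise. Alternatives were DESeq2 1.42.0, limma 3.58.1 voom, RLE, library totals, ERCC scaling, no filter, the replicate block and leaving out each library. Intervals cover the spread between hearts.

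Members, lists and tests were chosen with earlier results of these data known. Values per library are given for Ttn, the 8 members of smallest p and the 2 most abundant of each role. Named related genes are the 3 of smallest p. Values of other genes in single libraries, Lmod2 and Sorbs2 among them, were chosen after they were seen.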

Additional observations from a re-analysis of the deposited data

How the results depend on the processing

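No member passed under any of the 13 alternatives. The number of all genes called was 1 and became 2 by library totals, 3 in DESeq2, 10 without the filter on low counts, and 1 to 2 with each library left out. Whether same-numbered libraries pair cannot be settled with 3 libraries per group. Their deviations from the group means correlated, across genes, at 0.062, 0.0562 and 0.0144, where differently numbered libraries ran from -0.0893 to 0.0294. Not every library correlated best with its own number. With the replicate number as a block 1 gene was called and no member. Library scaling moved the median of all genes by at most 0.039.

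The sign never changed for 19 of the 37 members. It changed by library totals for Myom3 (-0.0457), Actn2 (-0.0108), Sorbs2 (-0.0134), Flnc (-0.0012) and Smyd1 (-0.0287), by spike-in scaling for Myom3 (-0.0059), Tmod1 (0.0112) and Capzb (0.0007), in limma voom for Myom3 (-0.0350), Sorbs2 (-0.0191) and Lmod2 (-0.0238), and with the replicate block for Sorbs2 (-0.0189) and Lmod2 (-0.0159).

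With each library left out in turn, log2 fold changes of members that changed sign ran from -0.0327 to 0.2204 for Myom2, -0.3399 to 0.3116 for Myom3, -0.0462 to 0.1392 for Actn2, -0.9687 to 0.2078 for Myot, -0.1462 to 0.0757 for Nexn, -0.0922 to 0.1908 for Pdlim3, -0.1331 to 0.1848 for Sorbs2, -0.0517 to 0.1152 for Flnc, -0.1077 to 0.2376 for Des, -0.1962 to 0.2732 for Synm, -0.1697 to 0.0412 for Vcl, -0.1337 to 0.0260 for Smpx, -0.0739 to 0.0096 for Tmod1, -0.4121 to 0.3874 for Lmod2, -0.0172 to 0.2302 for Lmod3, -0.0903 to 0.0096 for Capzb, -0.1465 to 0.0575 for Bag3 and -0.0608 to 0.0834 for Smyd1. The ratio differences that changed sign ran from -0.1081 to 0.0393 for Myom2 to Myom1, -0.9416 to 0.2596 for Myoz1 to Myoz2, -0.3555 to 0.3138 for Lmod2 to Tmod1 and -0.0643 to 0.0041 for Capza2 to Capzb. The median of intermediate filament and costamere genes ran from -0.1337 to 0.0412 and that of assembly factors from -0.0608 to 0.0834, in both cases with an end set by leaving out control replicate 2. The causes were not tested. Myoz1, Myot, Neb and Myom3 had 2 to 66 reads per library and 95% intervals that reached beyond a 1.5-fold change, as did those of Synm, Lmod2, Hspb7, Trim54 and Trim55.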
